A study of Bos taurus with 8 samples.

Results

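Of 8 endometrial biopsies taken from cows, 3 carried far more smooth muscle transcript than the other 5, and the account here describes how those 3 biopsies differed from the 5 across all measured genes. The 3 biopsies, called muscle-rich, were replicate 1 of the cows given 0 mM methylglyoxal and replicates 1 and 3 of the cows given 5 mM. The muscle-poor biopsies were 0 mM replicates 2, 3 and 4 and 5 mM replicates 2 and 4. They were chosen by their own expression values, as the mean of all probes for MYH11, ACTG2, CNN1 and DES on each array, whatever the dose. Because the arrays that chose the sets are the arrays compared, differences between the sets are given as a description, with no test.

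The study asked how methylglyoxal, a reactive dicarbonyl made as a by-product of glycolysis, affects the endometrium when placed in the uterus. Each horn received 25 mL of fluid with 0 mM or 5 mM methylglyoxal on day 1 after standing estrus, and the horn ipsilateral to the corpus luteum was biopsied on day 7. There were 4 biopsies at each dose, each from a different cow according to the labels. Total RNA from each biopsy was hybridised to 1 one-colour Agilent bovine array.

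The uterine wall holds an inner endometrium, with luminal and glandular epithelium over a stroma rich in vessels and leukocytes, and an outer myometrium of smooth muscle. Smooth muscle contracts when calcium activates myosin light chain kinase, which lets smooth muscle myosin slide along actin, while calponin, caldesmon and transgelin bind the actin filament and desmin links the filaments to each other and to dense plaques at the membrane. The walls of endometrial arteries hold smooth muscle as well. In a whole biopsy, fewer cells of a type and less RNA per cell cannot be told apart.

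Signals are given on the log2 scale after each array's 75th percentile was set to 0, so that 1 unit is a 2-fold difference, and a difference is the mean of the 3 muscle-rich arrays minus the mean of the 5 muscle-poor arrays. With 8 arrays, their number limits the precision. Between 68.3% and 73.3% of spots were well above background on each array. Over all tested probes, the 10 pairs of muscle-poor arrays correlated with Pearson's r of 0.974 to 0.988, the 21 pairs without 5 mM replicate 1 with 0.954 to 0.988, and the 7 pairs with 5 mM replicate 1 with 0.880 to 0.927. These correlations are across probes, which are not independent. The muscle-rich 5 mM replicate 1 therefore stood apart from every other array, and list medians are also given without it where that moved them by over 1.5 times or turned their sign. Both arrays of slide 1 were muscle-rich and all 3 of slide 2 muscle-poor, so only slide 3, with the muscle-rich 5 mM replicate 3 against 0 mM replicate 4 and 5 mM replicate 4, held both sets. Slide and set cannot be told apart outside slide 3.

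The marker means, each probe first centred on its mean over the 8 arrays, were 3.29, 2.15 and 1.63 on the muscle-rich 5 mM replicate 1, 5 mM replicate 3 and 0 mM replicate 1, in that order. In the muscle-poor biopsies they were -1.13 on both 5 mM replicate 4 and 0 mM replicate 4, -1.19 for 0 mM replicate 3, -1.48 for 5 mM replicate 2 and lowest, at -2.15, on 0 mM replicate 2. The lowest muscle-rich biopsy thus lay 2.75 above the highest muscle-poor one. Means of 14 contractile protein genes other than the markers put the same 3 biopsies on top, at 1.84, 0.82 and 0.71 against -1.03 to -0.52 on the other 5.

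**Figure D1:**
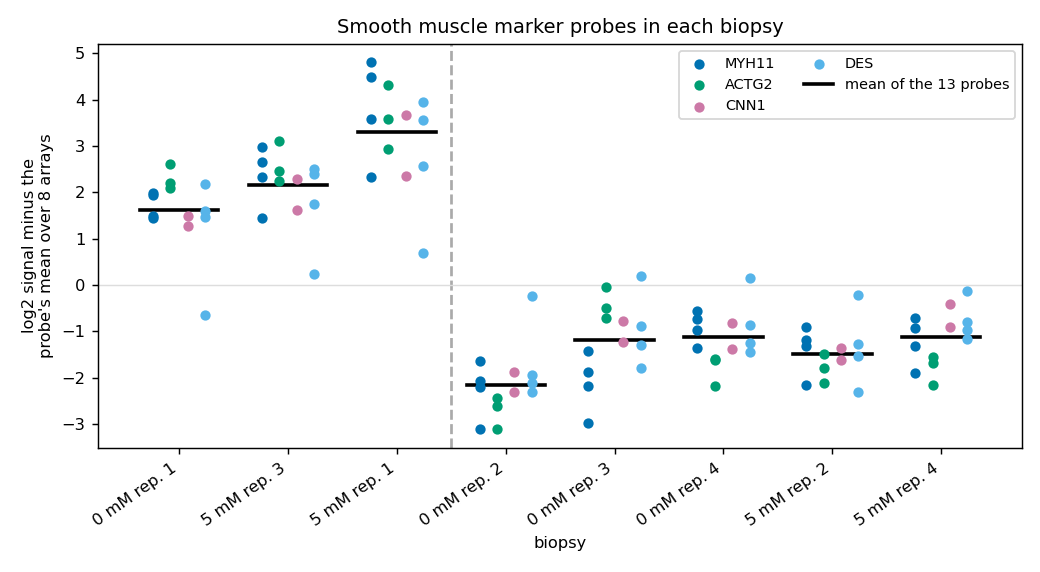
Log2 signal of the 13 marker probes, each centred on its mean over 8 arrays (vertical axis), in each biopsy (horizontal axis). Points are probes coloured by gene, black lines are the means of the 13 probes, and the dashed line divides the 3 muscle-rich from the 5 muscle-poor biopsies. The means of the muscle-rich biopsies run from 1.63 to 3.29 and those of the muscle-poor ones from -2.15 to -1.13.

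The 13 probes are 60 bases long, and 12 of them separated the sets. The probes shown here are 4 of those 12 and the 1 DES probe that did not, since what each probe can bind sets what the marker mean measures. Sequences and coordinates are those of the array's annotation, on the bovine build HGSC Btau_3.1. Exons are not given because no genome of that build was used here, but a span longer than the probe means that it crosses at least 1 intron.
MYH11 (chr25:15251554-15255401, minus strand): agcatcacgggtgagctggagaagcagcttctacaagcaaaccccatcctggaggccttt
ACTG2 (chr11:11148003-11149705, minus strand): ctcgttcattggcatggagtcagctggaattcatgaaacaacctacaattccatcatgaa
CNN1 (chr7:14341162-14341361, plus strand): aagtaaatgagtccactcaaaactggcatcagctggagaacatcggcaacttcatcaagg
DES (chr2:111755214-111755392, plus strand): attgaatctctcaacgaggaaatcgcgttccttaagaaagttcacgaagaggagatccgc
DES, also annotated to VIM and PRPH (chr2:111753764-111753823, plus strand): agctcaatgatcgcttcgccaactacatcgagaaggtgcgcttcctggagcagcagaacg

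The 4 probes shown that separated the sets differed by 4.86 (MYH11), 5.35 (ACTG2), 3.97 (CNN1) and 4.62 (DES). The DES probe annotated also to vimentin and peripherin, intermediate filament genes of mesenchymal and nerve cells, differed by 0.14, and its values overlapped between the sets. Actins differ little in coding sequence, so signal at an actin probe can come in part from another actin. With the brightest probe of each gene, MYH11, the smooth muscle myosin heavy chain, was 5.34, 5.34 and 6.22 on 0 mM replicate 1, 5 mM replicate 3 and 5 mM replicate 1, against 2.26, 2.48, 3.34, 2.98 and 3.19 on 0 mM replicates 2, 3 and 4 and 5 mM replicates 2 and 4. ACTG2, the enteric smooth muscle actin, was 4.46, 4.61 and 5.29 on the same 3 and -0.25, 2.31, 0.75, 0.86 and 0.80 on the same 5. The muscle-poor biopsies were not free of these transcripts, since both probes were well above background on all 8 arrays. CNN1, calponin, was 6.17, 6.50 and 7.23 against 3.01, 4.11, 4.08, 3.54 and 4.48, and DES, desmin, 3.84, 4.13 and 4.95 against 0.44, 1.49, 1.51, 1.11 and 1.58. In both genes 5 mM replicate 1 was the highest array. From here on, 3 values stand for 0 mM replicate 1, 5 mM replicate 3 and 5 mM replicate 1, and 5 values for 0 mM replicates 2, 3 and 4 and 5 mM replicates 2 and 4, in that order.

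Of 12442 genes other than the markers, 483 were at least 2-fold higher in the muscle-rich biopsies with no overlap between the sets (3.88%) and 653 were at least 2-fold lower (5.25%). Of the 653, 24 were not well above background on any muscle-rich array, so their measured difference is no size, and the bound can be under 2-fold. Genes of both kinds are called separated below, and the shares of 3.88% and 5.25% are those to set beside the counts of each list. Few or no separated genes in a short list is near these shares and not particular to that list. The corresponding counts over 31096 probes were 1270 (4.08%) and 1504 (4.84%), and the median difference over all genes was -0.023. Tested probes had to be well above background on at least 4 arrays. This rule could keep a probe seen only on the 5 muscle-poor arrays, but not one seen only on the 3 muscle-rich arrays. Without a filter 1704 probes were higher and 1641 lower, and with a filter on all arrays 953 and 1050. Which count was larger therefore depended on the filter. Without 5 mM replicate 1, 964 of the 1270 and 812 of the 1504 probes differed at least 2-fold. That none of them changed sign follows from the choice of probes without overlap. With 2 muscle-rich biopsies against 5, the separated genes were 474 higher (3.81%) and 423 lower (3.4%), of which 381 and 361 were also separated with all 3.

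The muscle-rich biopsies contributed unequally. Among the 483 higher genes, the highest array was 5 mM replicate 1 for 379, 5 mM replicate 3 for 74 and 0 mM replicate 1 for 30, and the median distance from the muscle-poor mean was 2.44, 1.68 and 1.32 in the same order. Among the 653 lower genes, the lowest array was 5 mM replicate 1 for 567, 5 mM replicate 3 for 46 and 0 mM replicate 1 for 40, with median distances of -2.59, -1.13 and -0.97. Among the higher genes 194 differed at least 4-fold and 27 at least 16-fold. Of 399 other probes for the higher genes 387 had the same sign, as did 474 of 488 for the lower genes.

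The 12 genes with the widest gap between the sets on the higher side held muscle genes beside secreted factors and genes best known from nerve and testis. RSPO1, a secreted enhancer of WNT signalling, was 3.13, 3.35 and 3.75 in the muscle-rich biopsies and -4.11, -3.07, -2.79, -3.93 and -4.34 in the muscle-poor ones. Its difference of 7.06 is 133-fold, and it was 6.89 without 5 mM replicate 1. RIMS1, a scaffold of the presynaptic active zone, was 2.08, 2.71 and 4.11 against -4.60, -3.96, -3.73, -4.0 and -4.15. MASP1, a serine protease of the lectin pathway of complement, was 0.27, 1.12 and 0.66 against -6.68, -6.28, -5.19, -8.11 and -6.03, a difference of 7.14 that was as large without 5 mM replicate 1, at 7.16. All 3 muscle-rich arrays of RSPO1 and MASP1 lay within 1 unit of each other.

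Muscle genes of the same group followed. ASB2, a muscle ubiquitin ligase subunit that targets filamins, was 0.81, 1.15 and 2.23 against -5.41, -6.11, -4.52, -5.98 and -4.54, and was well above background on 2 of the 5 muscle-poor arrays. RYR3, a ryanodine receptor that releases calcium from the sarcoplasmic reticulum, was -0.029, -0.43 and 2.48 against -5.35, -6.15, -5.18, -5.75 and -5.87. Its highest array was 5 mM replicate 1, and the difference was 6.33 with it and 5.43 without it. PDLIM3, an actinin-binding LIM protein, was 4.58, 4.55 and 5.29 against -0.52, -0.10, -0.02, -0.23 and 0.087. TAGLN, the actin-binding protein transgelin, was 4.84, 4.38 and 6.59 against -1.53, -0.11, 0.68, -1.73 and 0.69, a 50.9-fold difference. FBXL22, an F-box protein of the striated muscle Z-disc, differed by 5.22.

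The remaining genes of that group were CCL11, the eotaxin chemokine that draws eosinophils (-1.27, 0.65 and 1.31 against -7.15 to -5.03), DEFB, a beta-defensin (-0.84, 0.027 and 1.60 against -6.55 to -4.65), CBLN2, a secreted synapse organiser (0.75, 1.74 and 1.60 against -5.30 to -3.02), and CLGN, a chaperone of the testis (-1.52, -0.88 and -0.76 against -7.08 to -5.65). In the muscle-poor biopsies CCL11 was well above background on 3 of 5 arrays and DEFB, CBLN2, CLGN and MASP1 on 4 of 5. Their low levels lie near background, so the sizes of these differences depend on the background correction: with normexp, a model-based correction, MASP1 differed by 4.53, CCL11 by 4.10, DEFB by 3.81 and CLGN by 2.86, against 6.27 for RSPO1 and 6.19 for TAGLN.

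**Figure D2:**
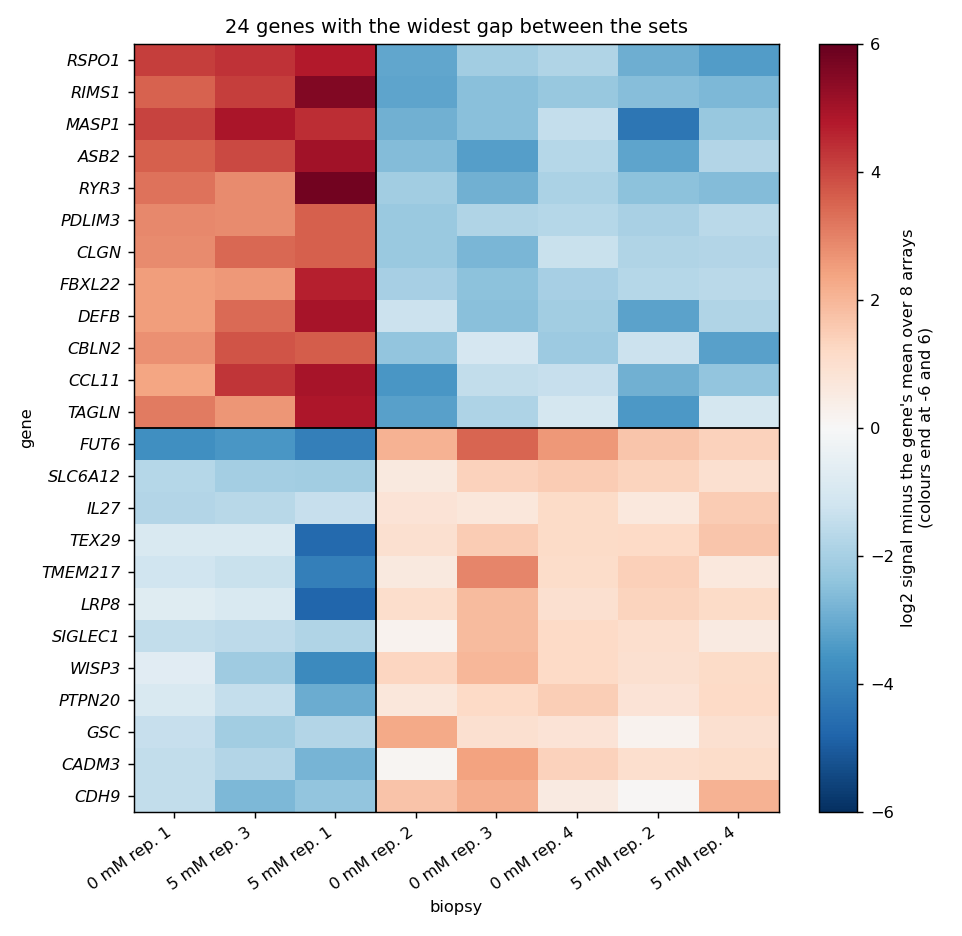
Log2 signal of 24 genes (rows of the map) in 8 biopsies (columns), centred on each gene's mean over the 8 arrays, with colours ending at -6 and 6. The vertical line divides the 3 muscle-rich from the 5 muscle-poor biopsies and the horizontal line the 12 higher from the 12 lower genes, and no gene overlaps between the sets. Differences run from 4.97 (PDLIM3) to 7.14 (MASP1) on the higher side.

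Contractile proteins of smooth muscle were higher as a group. Of 14 tested genes other than the markers, 13 were higher, 10 were separated and the median difference was 1.68, or 1.54 without 5 mM replicate 1 and 1.37 within slide 3. Besides TAGLN these were SMTN, smoothelin (3.78, 3.81 and 5.64 against 1.25, 1.53, 1.60, 1.23 and 1.64), LMOD1, the actin nucleator leiomodin (3.23, 3.71 and 5.35 against 0.99, 1.11, 1.67, 1.03 and 1.30), the tropomyosins TPM1 (2.67) and TPM2 (2.59), the regulatory light chain MYL9 (1.72), ACTN1 (1.27) and CNN2 (1.08). ACTA2, the alpha actin of vascular and other smooth muscle, was 6.34, 6.30 and 6.90 against 3.53, 5.24, 4.69, 4.34 and 4.66. Its 4.07-fold difference stands beside the 14.8-fold difference of ACTG2, one of the markers that chose the sets. MYLK, the myosin light chain kinase, was 4.76, 6.65 and 5.37 against 3.70, 4.23, 4.08, 4.04 and 3.75, and here 5 mM replicate 3 was the highest array.

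Not every contractile gene separated the sets. MYL6, an essential light chain shared with non-muscle myosin, differed by 0.65, and TPM4, a tropomyosin of non-muscle cells, by 0.0083. SMTNL2 was at -0.46, the only negative difference of the list. CALD1, caldesmon, had values on 5 arrays only, at 4.93, 4.37 and 5.50 in the muscle-rich biopsies against 4.43 on 0 mM replicate 4 and 3.88 on 5 mM replicate 4, with overlap.

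The genes of dense plaques, caveolae and the cytoskeleton that carries force to the membrane showed the same pattern. Of 30 tested, 28 were higher and 20 separated, with a median of 1.68, and 1.13 without 5 mM replicate 1. After PDLIM3, the widest were DTNA, dystrobrevin (-4.25, -3.80 and -2.83 against -7.34, -7.59, -7.82, -5.56 and -7.22), and SYNM, the intermediate filament protein synemin (0.56, 1.63 and 3.21 against -1.46, -1.51, -1.30, -1.32 and -1.15). DTNA was well above background on 1 of the 5 muscle-poor arrays, and with normexp it differed by 1.05. The actin crosslinker FLNA, filamin A, was 2.49, 2.95 and 4.46 against -0.13, 1.28, 1.03, 0.26 and 0.64, and vinculin, VCL, 3.37, 3.77 and 5.20 against 2.17, 2.57, 2.47, 2.49 and 2.65. The caveola genes CAV1 and CAVIN1 differed by 1.72 and 1.24, and the small heat shock protein genes CRYAB and HSPB8 by 2.68 and 1.78. HSPB6, another of that family, differed by 0.53, or 0.053 without 5 mM replicate 1. Dystrophin, DMD, differed by 0.78. AOC3, a vascular amine oxidase, had no value on 5 mM replicate 3.

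Genes that set calcium and cyclic nucleotide signals in muscle were more mixed. Of 16 tested, 13 were higher and 7 separated, with a median of 0.77 (0.53 without 5 mM replicate 1, 0.73 within slide 3). KCNMB1, the smooth muscle subunit of the large-conductance calcium-activated potassium channel, was 1.99, 2.53 and 4.24 against -1.67, -2.50, -1.87, -1.94 and -1.78, a 29.3-fold difference. Its pore subunit KCNMA1, which other cells make as well, was 4.36, 4.50 and 5.08 against 4.28, 4.31, 4.32, 3.74 and 4.13, a difference of 0.49 that was not counted as separated because it is under 2-fold. PLN, phospholamban, which restrains the sarcoplasmic calcium pump, was -0.87, -0.051 and 0.74 against -2.32, -4.12, -3.12, -2.62 and -2.69, and the pump itself, ATP2A2, differed by 0.58. RYR2 differed by 2.32, PRKG1, the cyclic GMP-dependent kinase, by 2.08, PDE5A by 1.40 and the calcium channel subunit CACNB2 by 1.1. ITPR1, the inositol trisphosphate receptor, was at 0.10. CASQ2, a calcium store protein, was lower by -1.71, with overlap between the sets.

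Receptors through which hormones and nerves drive uterine contraction were mixed. Of 18 tested, 12 were higher, 3 were separated higher and 1 lower, and the median was 0.33 (0.27 without 5 mM replicate 1). PTGER3, a prostaglandin E2 receptor that promotes contraction, was -0.37, 0.43 and 2.85 against -4.02, -3.15, -3.70, -3.94 and -2.56, a 21.9-fold difference (3.51 on the log2 scale without 5 mM replicate 1). CHRM2, the M2 muscarinic receptor, was -3.34, -2.80 and -2.16 against -5.43, -5.62, -5.10, -6.34 and -6.39. CHRM3, the M3 receptor, differed by 0.53. GJC1, a connexin of gap junctions, was -0.82, -0.32 and -0.63 against -3.42, -2.0, -2.23, -2.72 and -2.41, while GJA1, the connexin of gap junctions in labour, differed by -0.25.

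OXTR, the oxytocin receptor, which both myometrium and endometrial epithelium can make, was -1.58, -0.39 and 0.36 against -3.11, -0.92, -2.62, -2.70 and -3.51. Its mean difference was 2.03, but 0 mM replicate 3 at -0.92 lay above the muscle-rich 0 mM replicate 1 at -1.58, so the sets overlapped. NPR3, a clearance receptor for natriuretic peptides, was lower, at -6.19, -5.49 and -8.47 against -4.76, -4.30, -4.23, -4.76 and -3.51, and was well above background on 2 of the 3 muscle-rich arrays. PTGFR, the prostaglandin F receptor, is on the array but had no probe well above background on at least 4 arrays.

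Of 13 tested transcription regulators of smooth muscle, 10 were higher, 3 were separated higher and 1 lower, and the median was 0.37 (0.32 without 5 mM replicate 1). RBPMS, an RNA-binding protein that drives muscle splicing, was 0.10, 1.19 and 1.57 against -0.44, -0.23, -0.27, -0.48 and 0.085, and MEIS1, a homeobox gene, was 2.66, 2.69 and 4.28 against 1.85, 2.09, 2.19, 1.86 and 2.28. RBPMS2 was separated as well (1.56) but was well above background on 1 of the 5 muscle-poor arrays, and with normexp it differed by 0.16. SRF, the serum response factor that binds the promoters of contractile genes, was -5.82, -4.76 and -4.27 against -6.06 to -5.67, with overlap. FOXF1 was lower (-4.79, -5.11 and -7.65 against -3.76, -3.11, -3.56, -3.96 and -3.60), was well above background on 2 of the 3 muscle-rich arrays, and differed by -0.61 with normexp against -2.25. MYOCD, the coactivator of SRF, was not measured here.

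Growth factor and matrix genes included members with wide differences in both directions. In the WNT list, 17 of 21 tested genes were lower, 5 were separated lower and 1 higher, and the median was -0.52. WNT2 was -0.23, -0.54 and -5.59 against 0.75, 2.01, 1.51, 1.00 and 1.07 and WNT7A, a ligand of uterine epithelium, -6.77, -5.59 and -8.32 against -4.63, -3.72, -3.41, -4.09 and -3.87. SFRP2, a secreted WNT binding protein, was higher (1.45, 2.16 and 3.62 against 0.083, 0.14, 0.048, 0.50 and 0.37). The WNT list means were -0.15, 0.16 and -1.48 against -0.093 to 0.59, and 2 genes were separated lower without that array. In the TGF-beta and activin list, INHBA, the activin A subunit, was 0.74, 1.84 and 1.08 against -0.67, -0.31, -0.88, 0.12 and -0.27, and FST, follistatin, which binds and blocks activin, was 2.86, 2.21 and 1.31 against 3.92, 4.48, 4.38, 3.90 and 4.14. TGFB1I1, a focal adhesion coactivator of smooth muscle, was 1.89, 2.53 and 4.20 against -0.067, 0.76, 0.76, 0.21 and 0.41. The list as a whole had 4 separated higher and 3 separated lower genes of 17, with a median of 0.028 (-0.091 without 5 mM replicate 1).

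Matrix genes were mixed. Of 29 collagen and elastic fibre genes, 17 were higher, 5 were separated higher and 1 lower, with a median of 0.24 that was 0.035 without 5 mM replicate 1. EFEMP1, a fibulin, was 1.95, 2.90 and 2.63 against -0.00015, -0.29, -0.68, -0.67 and 0.024, and LTBP1, which holds latent TGF-beta in the matrix, differed by 2.26. Of 23 stromal fibroblast genes 3 were separated higher and 0 lower, with a median of -0.17 (-0.40 without 5 mM replicate 1). Those with the widest differences were DPT, dermatopontin (1.48, 2.31 and 3.71 against -1.37, -0.39, 0.051, 0.42 and -0.30), and CXCL12, a chemokine of stroma (3.69, 4.33 and 5.43 against 2.44, 1.82, 2.49, 2.48 and 2.52). MFAP5, a microfibril protein, lay the other way, with 0 mM replicate 1 at 1.56, 5 mM replicate 3 at 1.92 and 5 mM replicate 1 at 3.67 against 3.51 to 4.53, and overlapped through 5 mM replicate 1.

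Markers of other cell types that a deep biopsy could hold were mixed. Of 16 nerve and Schwann cell genes 2 were separated in each direction, with medians of -0.51 with and 0.036 without 5 mM replicate 1. SNAP25, a synaptic vesicle fusion protein, was 0.81, 1.25 and 0.93 against -2.02, -2.34, -3.00, -3.04 and -2.83, and GFRA1, a GDNF receptor, -0.27, -1.09 and 2.81 against -3.38, -3.29, -3.68, -3.74 and -3.24. STMN2, a neuronal tubulin regulator, was not well above background on 5 mM replicate 1, at -8.37 against -1.71 to 1.06 on the other 7 arrays. Of 7 adipocyte genes 1 was separated, FABP4, a fatty acid binding protein of fat and vessel wall, at -2.45, -1.23 and 1.07 against -5.76, -6.52, -6.13, -6.05 and -5.93, a 36.9-fold difference. The lowest signals well above background on the muscle-poor arrays were -6.95 to -6.48, and FABP4 lay under it on 0 mM replicate 3. The fold of FABP4 therefore depends on the background correction. The adipocyte gene CIDEA differed by 0.93, with overlap.

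Among 10 genes used for skeletal muscle, 9 were higher and 4 separated (median 1.04, or 0.73 without 5 mM replicate 1). They included the actin ACTA1 (-0.19, 0.32 and 1.83 against -3.37, -2.07, -2.77, -2.95 and -3.00), ACTN2, the Z-disc actinin (2.61), and MB, myoglobin (1.82). The fast skeletal myosins MYH1 and MYH2 had no tested probe. Of 10 pericyte genes 6 were lower, 3 were separated lower and 1 higher, with medians of -0.21 with and -0.39 without 5 mM replicate 1. ANGPT1, angiopoietin 1, was higher (-2.09, -1.21 and 0.13 against -2.86, -3.67, -3.33, -3.20 and -3.49) and RGS5 and HIGD1B, markers of pericytes, were lower (-2.35, -2.83 and -3.56 against -1.96, -0.39, -1.01, -1.88 and -1.44 for RGS5, and a difference of -1.64 for HIGD1B). Of 17 vascular endothelium genes 1 was separated, LYVE1, a marker of lymphatic vessels (-2.39, -1.79 and -0.89 against -3.86, -3.57, -3.86, -4.12 and -2.66), and the list median was -0.42 (-0.30 without 5 mM replicate 1). Among 5 neutrophil, 3 red blood cell, 4 interstitial cell of Cajal and 17 heat shock genes 0 were separated, with medians of -0.59, -1.23, 0.043 and 0.15. The interstitial cell median was 0.34 without 5 mM replicate 1. Of 4 mesothelium genes UPK1B, a uroplakin, was separated (2.76, 1.99 and 0.83 against 3.44, 4.75, 4.29, 3.66 and 4.43), but its other probe had the opposite sign, and the list median was -0.33 with and -0.61 without 5 mM replicate 1. Of 20 immediate early genes MYC and IER3 were separated higher (1.13 and 1.09) and FOS lower (-1.40). The part of these cell types in the muscle differences was not tested.

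On the lower side, FUT6 is named on the array as a fucosyltransferase gene. It was -2.74, -2.53 and -3.13 in the muscle-rich biopsies and 3.03, 4.46, 3.56, 2.61 and 2.33 in the muscle-poor ones, a 64-fold difference that was -5.83 on the log2 scale without 5 mM replicate 1 and -5.47 within slide 3. Like the defensin DEFB, FUT6 belongs to a multigene family, and whether its probe also binds relatives was not checked. CADM3, a cell adhesion protein, was -0.52, -0.83 and -1.84 against 1.07, 3.34, 2.30, 1.94 and 2.02, and SIGLEC1, the sialoadhesin of macrophages, -4.02, -4.11 and -4.36 against -2.37, -0.66, -1.36, -1.55 and -2.02. These genes were well above background on all 8 arrays, and all 3 muscle-rich biopsies were low.

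In other lower genes 5 mM replicate 1 lay far below the other muscle-rich biopsies. TEX29, a testis gene, was -3.43, -3.42 and -7.19 against -1.53, -0.98, -1.36, -1.33 and -0.85, and LRP8, a receptor for apolipoprotein E and reelin, -3.77, -3.96 and -7.80 against -2.0, -1.15, -2.08, -1.71 and -1.90. TMEM217, a membrane protein gene, was -5.00, -5.12 and -7.91 against -3.25, -0.88, -2.72, -2.39 and -3.20, and WISP3, of the CCN family of matrix proteins, -5.34, -6.83 and -8.47 against -3.38, -2.67, -3.47, -3.70 and -3.52. Without 5 mM replicate 1 their differences were -2.22, -2.10, -2.58 and -2.73. PTPN20, a tyrosine phosphatase gene, differed by -2.85 and, like WISP3, was well above background on 1 of the 3 muscle-rich arrays. TEX29, LRP8 and TMEM217 were well above background on 2 of the 3, but not on 5 mM replicate 1. How far they lay below on that array therefore depends on the background correction. With normexp TEX29, LRP8 and TMEM217 differed by -2.27, -1.86 and -1.76, against -3.47, -3.41 and -3.53.

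For 4 of the 12 lowest genes only a bound can be given, because they were not well above background on any muscle-rich array. It sets the muscle-poor mean against the higher of the probe's own signal and the lowest signal that was well above background on each muscle-rich array. CDH9, a cadherin, was at least 3.1-fold lower, SLC6A12, a betaine and GABA transporter, at least 2.56-fold, GSC, the homeobox gene goosecoid, at least 1.70-fold and IL27, a cytokine subunit, at least 1.28-fold lower. With normexp these differed by -0.91, -0.46, -0.58 and -0.42.

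Macrophage and dendritic cell genes were lower in the muscle-rich biopsies, and this did not rest on 5 mM replicate 1. Of 18 tested, 17 were lower and 11 separated, with a median of -1.12. Without 5 mM replicate 1 the median was -1.15 with 10 separated, and within slide 3 it was -0.97. The list means were -0.64, -0.67 and -0.57 against 0.046 to 0.65. The complement C1q chains, which tissue macrophages make, were among the widest, with C1QA at 2.01, 1.52 and 1.01 against 2.93, 3.99, 3.55, 2.96 and 2.88 and C1QC at -0.35, -1.02 and -1.44 against 0.74, 1.77, 1.04, 0.55 and 0.38. The scavenger receptor gene CD163 was -6.77, -6.98 and -5.97 against -5.39, -4.82, -4.40, -5.18 and -4.91, well above background on 1 of the 3 muscle-rich arrays. VSIG4, a complement receptor of resident macrophages, was -2.85, -2.65 and -2.64 against -0.95, -1.08, -0.94, -0.93 and -1.61, and MRC1, the mannose receptor, -2.85, -2.98 and -2.53 against -1.64, -0.68, -1.40, -1.55 and -1.82. In both genes all 3 muscle-rich biopsies lay below all 5 muscle-poor ones. The myeloid genes CD68 and CD14 were separated as well (-1.35 and -1.1), while LYZ, lysozyme, was at 0.061, FCER1G at -0.089 and AIF1 at -0.12, with overlap.

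Antigen presentation genes were lower too, 16 of 17 with 7 separated and a median of -0.93 (-0.67 and 5 separated without 5 mM replicate 1). TAP1, a peptide transporter for MHC class I, was -3.33, -3.39 and -4.94 against -1.74, -1.79, -1.76, -2.02 and -2.15, and the immunoproteasome subunit gene PSMB9 2.02, 1.84 and 0.34 against 3.46, 3.28, 3.14, 2.81 and 3.22. BOLA-DOB, an MHC class II chain, differed by -1.98. Of 28 interferon-stimulated genes 23 were lower and 5 separated (median -0.65), and 2 were separated without 5 mM replicate 1. OAS1X, an antiviral synthetase, was -3.81, -4.21 and -4.28 against -2.66, -2.40, -2.01, -2.95 and -2.93. Among lymphocyte genes, 13 of 17 T and NK cell genes were lower and 2 separated, including CD5 (-1.48), with medians of -0.84 with and -0.28 without 5 mM replicate 1. CD5 was well above background on 1 of the 3 muscle-rich arrays, and with normexp it differed by -0.62. Of 8 B and plasma cell genes (medians 0.027 and -0.082) 1 was separated, the B cell receptor chain CD79A, which was higher (-3.50, -4.19 and -4.17 against -4.40, -5.36, -4.34, -8.08 and -5.22). FCER1A, the IgE receptor chain of mast cells, was separated lower (-1.43).

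**Figure D3:**
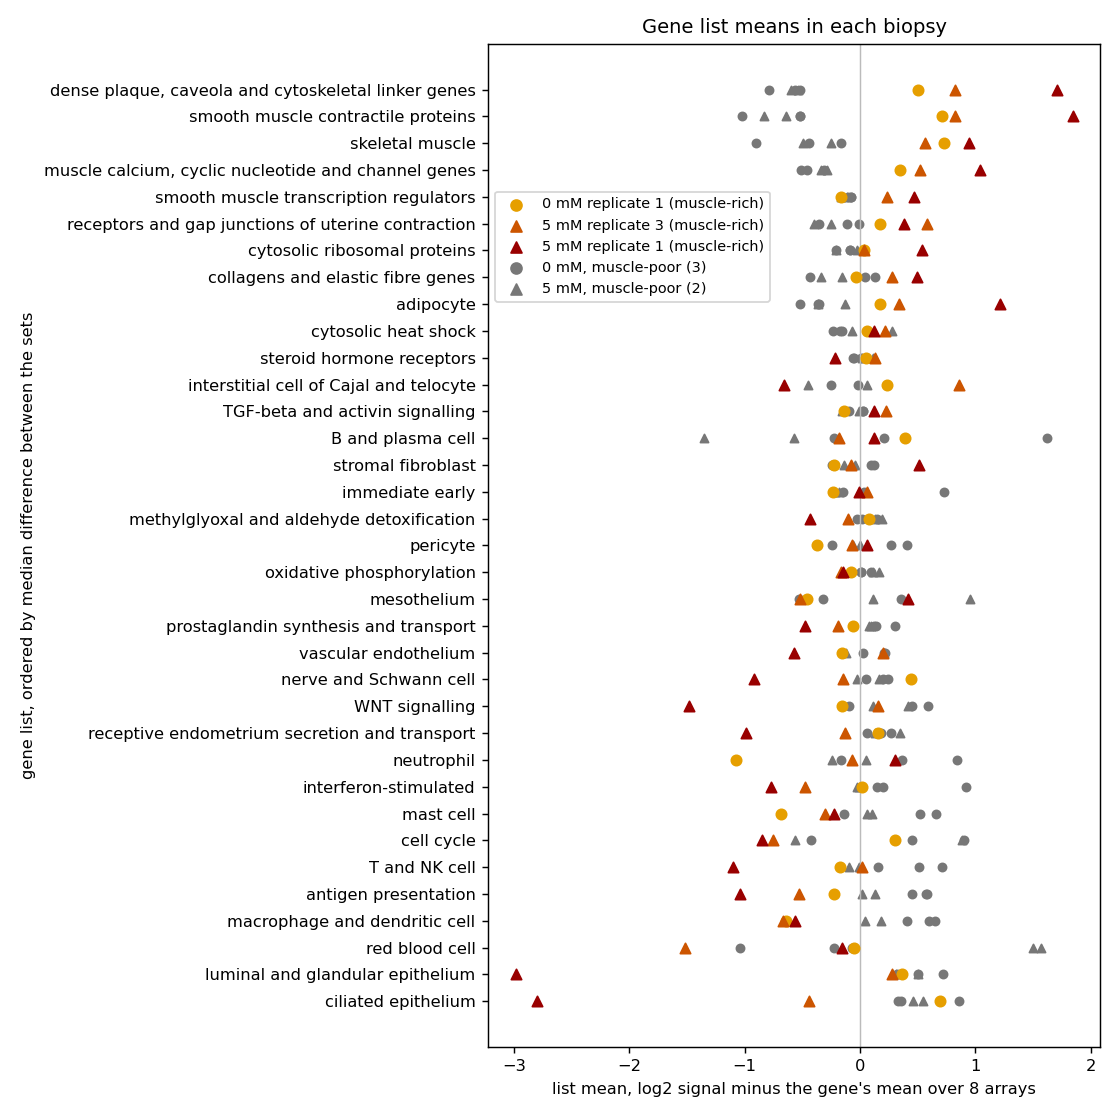
Mean of each gene list in each biopsy, every gene centred on its mean over the 8 arrays (horizontal axis, log2), for 35 lists ordered by their median difference between the sets (vertical axis). Coloured points are the 3 muscle-rich biopsies and grey points the 5 muscle-poor ones, with circles for 0 mM and triangles for 5 mM. The contractile list puts the muscle-rich biopsies at 0.71 to 1.84 and the rest at -1.03 to -0.52, and the epithelial lists put 5 mM replicate 1 alone at -2.98 and -2.81.

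The endometrial label was checked with epithelial markers, which were present in 7 biopsies and low in 1. EPCAM, the epithelial adhesion molecule, was -1.26 on 5 mM replicate 1 and 4.33 to 4.83 on the other 7, and KRT8, a keratin of simple epithelium, was 0.62 against 3.35 to 4.16. Both were still well above background on 5 mM replicate 1. The list mean of 29 luminal and glandular genes was -2.98 there and 0.27 to 0.72 on the other 7, with 27 of the 29 genes lowest on that array. Between the sets, 27 of the 29 were lower and 8 separated (median -1.34), but without 5 mM replicate 1 the median was -0.24 and 2 were separated. The muscle-rich biopsies 0 mM replicate 1 and 5 mM replicate 3, at list means of 0.36 and 0.27, lay inside and just below the muscle-poor range of 0.31 to 0.72. The part of the epithelium in the differences of 5 mM replicate 1 was not tested.

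The ciliated epithelium list ran likewise, at -2.81 on 5 mM replicate 1, -0.45 on 5 mM replicate 3 and 0.33 to 0.86 on the rest, with medians of -1.55 with and -0.31 without that array. DRC1, of the axonemal regulatory complex, was -4.98 against 0.99 to 2.26, and SPAG6, a protein of the ciliary central pair, was not well above background on 5 mM replicate 1 (-8.33 against -1.59 to -0.19). Of the epithelial list, CLDN7, a tight junction claudin, and OVOL1, an epithelial transcription factor, differed at least 2-fold without 5 mM replicate 1 as well (-1.21 and -1.02). CDH3, P-cadherin, went the other way, at -3.76, -2.65 and -0.11 against -5.11, -5.43, -4.65, -4.67 and -4.96.

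The array of 5 mM replicate 1 lay above all other 7 arrays, and at least 2-fold above their mean, for 1119 genes (8.99%). For 2004 genes (16.1%) it lay below all other 7 and at least 2-fold below their mean. The 12 genes with the widest gap below were led by genes of epithelium and cilia. Of these 12, only IHH, PIP, GJB5 and PLA2G10 were well above background on that array, so the size of the other 8 differences depends on the background correction. C13H20orf85, a gene of ciliated cells, was -8.26 against -0.88 to 0.64, and IHH, the hedgehog ligand that progesterone raises in uterine epithelium, -3.65 against 3.64 to 4.67. PIP, a secreted glycoprotein of glands, was -4.41 against 2.85 to 4.0, and the secreted phospholipase PLA2G10 -4.26 against 2.26 to 4.91. The others were FOXA3, GJB5, CCDC113, SPAG6, ROPN1, ERICH2, STMN2 and TNMD. A second FOXA3 probe differed between the sets with the opposite sign. A second IHH probe differed between the sets by -0.34, against -2.40 for the probe given here. TNMD, tenomodulin, was also lower in the other muscle-rich biopsies, at 1.85 and 0.84, than in the muscle-poor ones at 3.07 to 3.91.

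The 12 genes with the widest gap above included 2 of complement. C4BPA, a complement inhibitor, was -0.54 against -6.68 to -4.14 and CFB, complement factor B, 4.38 against -0.68 to 1.09. MYH3, the embryonic skeletal myosin, was 2.31 on 5 mM replicate 1 and -2.35 and -2.18 on the other muscle-rich biopsies, against -3.97 to -3.27 on the muscle-poor ones, so that it was separated between the sets too. CHI3L1, a secreted chitinase-like protein, was 0.80 against -6.38 to -3.48, and PLAGL1, an imprinted zinc finger gene, 1.94 against -1.16 to -0.89. Without 5 mM replicate 1, C4BPA differed between the sets by -0.58, CFB by -0.033 and PLAGL1 by 0.0012, so their differences between the sets rested on that array. The others were PTPRR, HOXC11, GFRA1, UNC13C, RNF182, LPAR4 and ZFPM2.

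**Figure D4:**
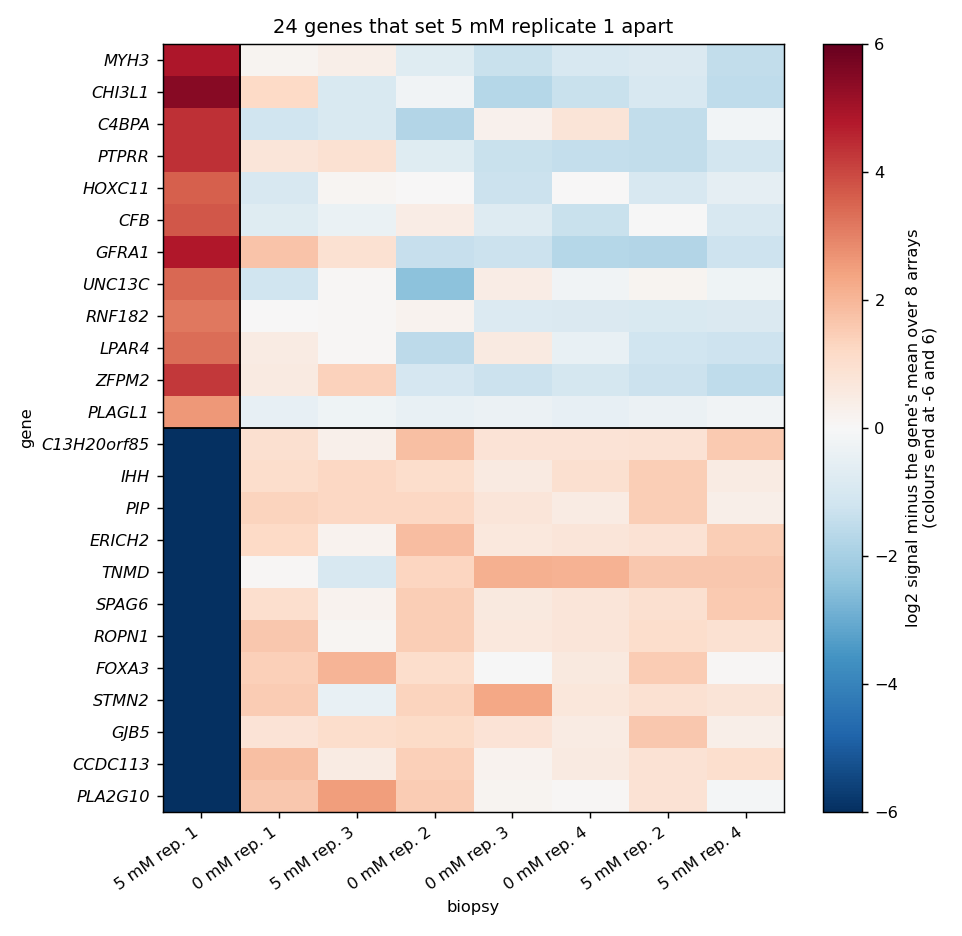
Log2 signal of 24 genes (rows of the map) in 8 biopsies (columns, 5 mM replicate 1 first), centred on each gene's mean over the 8 arrays, with colours ending at -6 and 6. The vertical line sets 5 mM replicate 1 apart from the other 7 and the horizontal line divides 12 genes highest there from 12 lowest there. Before centring, IHH is at -3.65 on that array and at 3.64 to 4.67 on the other 7. A second IHH probe, not drawn, differed between the sets by -0.34, against -2.40 for the probe drawn.

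Of 12 steroid hormone receptor and coregulator genes 0 were separated in either direction, against 3.88% higher and 5.25% lower of all genes. With so few genes, 0 is near those shares. PGR, the progesterone receptor, was -1.23, -1.09 and -1.33 against -1.24, -1.1, -1.37, -1.00 and -1.21, and ESR1, estrogen receptor alpha, -4.67, -4.15 and -4.45 against -4.75, -5.14, -4.86, -4.33 and -5.01. ESR2 was at -5.49 on 5 mM replicate 1 and -1.21 to 0.12 elsewhere. Of 22 genes that detoxify methylglyoxal and other aldehydes (medians -0.20 with and -0.075 without 5 mM replicate 1) 1 was separated, GCLC of glutathione synthesis (lower, well above background on 1 muscle-rich array). GLO1, glyoxalase I, was 2.51, -0.88 and 3.03 against 0.65, 1.1, -0.34, 0.42 and 0.075, so that 5 mM replicate 3 was the lowest of the 8 arrays and the other muscle-rich biopsies the highest. Of 27 cell cycle genes 24 were lower and 0 separated, with a median of -0.72 (-0.44 without 5 mM replicate 1). Of 35 oxidative phosphorylation genes 31 were lower and 0 separated, with a median of -0.25 and list means of -0.074, -0.16 and -0.15 against 0.0078 to 0.16. All 45 cytosolic ribosomal protein genes had positive differences, with a median of 0.26 and 0.098 without 5 mM replicate 1, and 2 were separated.

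Secretory and transport genes of the receptive endometrium were lower in 18 of 31 cases, with 6 separated lower and 1 higher and a median of -0.55 (-0.14 without 5 mM replicate 1, with 6 separated lower). FABP3, a fatty acid binding protein, was -0.36, -2.19 and -2.46 against 0.43, 2.36, 1.05, 0.79 and 0.63, and SCNN1A, a subunit of the epithelial sodium channel, 0.74, 0.88 and -2.01 against 1.66, 2.14, 2.31, 1.91 and 2.49. Of 17 prostaglandin synthesis and transport genes 1 was separated, PTGER4, a prostaglandin E2 receptor that relaxes muscle (-0.54, -0.54 and -0.41 against 0.035, 0.72, 0.72, 0.36 and 0.91). The prostaglandin receptors PTGER3 and PTGER4 thus lay on opposite sides.

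Of the 3 muscle-rich biopsies 2 had been given 5 mM. The doses were compared with limma over all 31108 tested probes with Benjamini-Hochberg adjustment, and a value after ± is a standard error. In all 8 biopsies 0 probes had an adjusted p under 0.05 (0.0%), and 595 had an unadjusted p under 0.05 (1.91%). In the 5 muscle-poor biopsies, 2 of 5 mM against 3 of 0 mM, the counts were 0 and 669 (2.15%), and with the marker mean as a covariate 0 and 501 (1.61%). The labelled animals are the replicates, so these p-values measure the spread between cows.

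The dose difference (5 mM minus 0 mM) of muscle genes is given with the muscle-rich biopsies and without them, and did not pass the adjusted threshold in either. The 5 muscle-poor biopsies were chosen for low muscle markers. Smaller dose differences of muscle genes among them follow in part from that choice and say nothing of an effect of dose. MYH11 differed by 1.08 ± 0.93 over all 8 biopsies and by 0.39 ± 0.35 over the 5 muscle-poor ones. TAGLN differed by 1.51 ± 2.0 and -0.21 ± 0.92, KCNMB1 by 1.77 ± 1.61 and 0.15 ± 0.28 and PTGER3 by 2.01 ± 1.51 and 0.37 ± 0.48. The median over the contractile list was 0.61 with 12 of 14 genes higher at 5 mM over all biopsies, and -0.060 with 5 of 14 over the muscle-poor ones. For the linker list the medians were 0.66 and 0.025, and for the calcium and channel list 0.51 and 0.12. Epithelial genes ran the other way, with medians of -1.16 and -0.072 for the luminal and glandular list and -1.13 and -0.026 for the ciliated list. The values over all 8 include 5 mM replicate 1, where the means of these lists were -2.98 and -2.81. On the other arrays they were 0.27 to 0.72 and -0.45 to 0.86. EPCAM differed by -1.42 ± 1.29 over all 8 and by 0.0044 ± 0.20 over the 5.

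Macrophage genes were lower at 5 mM in both comparisons, with medians of -0.46 and -0.43, and so were antigen presentation genes, at -0.62 and -0.32. With the marker mean as a covariate these medians were -0.19 and -0.24. C1QA differed by -1.03 ± 0.57 and -0.57 ± 0.33, and TAP1 by -0.97 ± 0.69 and -0.32 ± 0.15. FUT6 differed by -2.26 ± 1.95 and -1.22 ± 0.43. In limma's fits the adjusted p of every gene named here was at least 0.913 over all 8 biopsies and 1.00 over the 5. The hemoglobin genes HBA and HBB differed by 2.29 ± 0.26 and 3.74 ± 0.72 over the 5 muscle-poor biopsies and by 1.02 ± 0.69 and 1.31 ± 1.33 over all 8. HBB was well above background on 4 of the 5 muscle-poor and 2 of the 3 muscle-rich arrays. The size of its differences therefore depends on the background correction. HBA was at 0.50 and -0.14 on the 2 muscle-poor 5 mM arrays and at -2.65 to -1.86 on the other 6, the muscle-rich 5 mM arrays included.

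**Figure D5:**
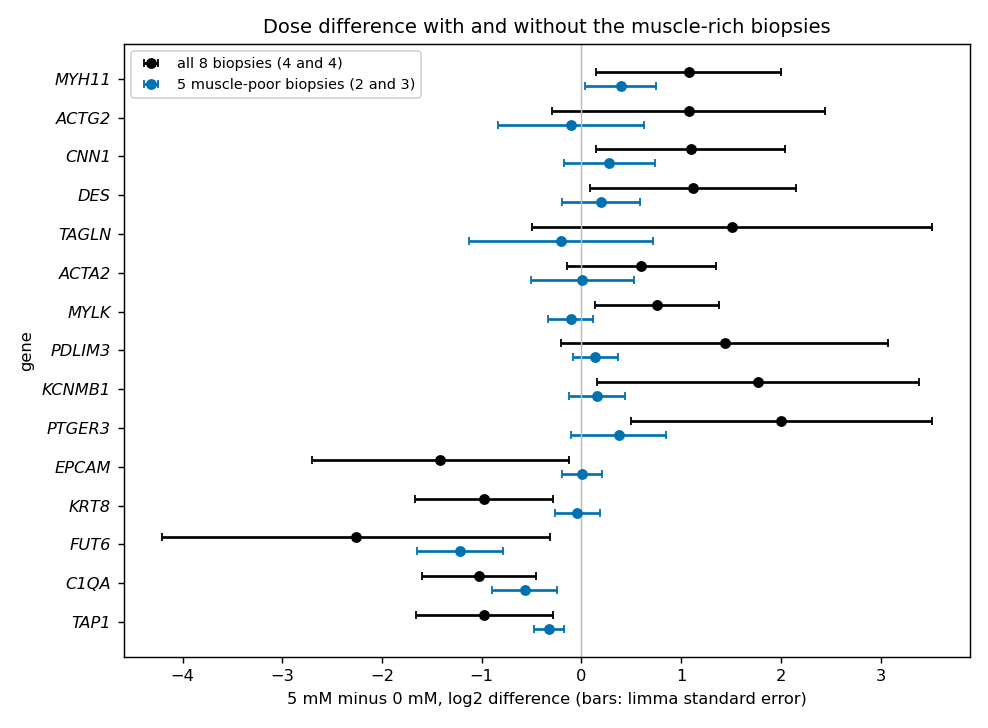
Difference between 5 mM and 0 mM (horizontal axis, log2) for 15 genes (vertical axis), over all 8 biopsies in black and over the 5 muscle-poor biopsies in blue, with limma standard errors as bars. The 10 muscle genes at the top lie at 0.60 to 2.01 over all 8 biopsies and at -0.21 to 0.39 over the 5, and 0 of the genes shown passed the adjusted threshold. These 10 include the markers that chose the biopsies, so their smaller differences over the 5 follow in part from that choice.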

How the data were processed

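RNA from 8 biopsies was hybridised to Agilent arrays of design 023647. The authors deposited scanner files whose processed intensities are background-subtracted and detrended but not scaled between arrays, per the file headers. The headers name Feature Extraction 11.5.1.1, and the submitters' processing notes name 10.5.1.1. The authors also deposited a table of log2 values, whose columns correlated with the scanner values, shifted to the 75th percentile and centred per probe, at 0.9995 or more. The median of each column, in replicate order, was -0.016, -0.023, 0.00088 and -0.0062 at 0 mM, then 0.13, -0.0049, -0.011 and 0.013 at 5 mM. This table served as an alternative.

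After control and outlier-marked spots were removed, log2 signals of a probe's spots were averaged and shifted so that the 75th percentile over noncontrol spots was 0 on each array. Probes well above background on at least 4 of 8 arrays were tested (31108 of 43653, with 461 missing values). A gene took its probe with the highest mean. Symbols came from the files, updated through a RefSeq table of assembly ARS-UCD2.0. Means were taken over the arrays that had a value. The doses were tested in R 4.3.3 by lmFit and eBayes of limma 3.58.1, with Benjamini-Hochberg adjustment, and the fit was tested on simulated data.

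The sets, the 35 gene lists (618 of 746 symbols tested) and the rules were chosen with earlier results of these data known. The rule for named genes took the markers, 12 genes in each direction by the gap between the sets, 12 in each direction by the gap of 5 mM replicate 1, the 3 widest of each list and 12 genes of interest. Alternatives were quantile, median-shift and normexp normalization (offset 50), the deposited table, other filters, slide 3, other sets, blocks and leaving out each array.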

Additional observations from a re-analysis of the deposited data

Results flagged for a closer look

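In each dose group of 4 biopsies, a value was set apart when its gap to the nearest other value as a share of the group's range was over Dixon's 95% critical value. Of 390 groups, 37 met this. Chance gives about 1 in 20, but many of these genes were chosen for the gap of 5 mM replicate 1 or for the gap between the sets, so the count cannot be set against that share. Of the 30 genes among them, 12 were set apart by 0 mM replicate 1 and 15 by 5 mM replicate 1, both muscle-rich. No explanation was tested.

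In 0 mM replicate 1, the 1 muscle-rich biopsy of its dose, genes higher in the muscle-rich set lay above the other 3, with RIMS1 at 2.08, RYR3 at -0.029, PDLIM3 at 4.58, FBXL22 at 0.62, SMTN at 3.78, DTNA at -4.25 and SYNM at 0.56. GFRA1 at -0.27, ZFPM2 at -2.85 and SFRP2 at 1.45 lay above as well. IL27 at -8.82, TAP1 at -3.33 and the antigen presentation mean at -0.23 lay below.

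In 5 mM replicate 1, 12 genes were set apart below the other 3, among them the epithelial genes KRT8 and EPCAM. They were C13H20orf85 at -8.26, IHH at -3.65, PIP at -4.41, ERICH2 at -7.08, ROPN1 at -8.44, GJB5 at -5.32, CCDC113 at -6.41, DRC1 at -4.98, KRT8 at 0.62 and EPCAM at -1.26. STMN2 at -8.37 and PRF1, the perforin of cytotoxic lymphocytes, at -8.26 were below too. Neither was well above background on that array, and a second PRF1 probe differed between the sets by 0.98, against -1.44 for this one. CHI3L1 at 0.80, UNC13C at -2.48 and PLAGL1 at 1.94 were above. The list means there were -2.98 for luminal and glandular epithelium, -1.10 for T and NK cells, -1.48 for WNT signalling and 0.51 for stromal fibroblasts.

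In 5 mM replicate 3, MFAP5 was at 1.92, below 3.54 to 3.82, and ANO1, a chloride channel of interstitial cells of Cajal, at -0.92, above the narrow range of -3.32 to -3.31. FOS, an immediate early gene, was at 2.35 in 0 mM replicate 2 and at -1.96 to -1.37 in the others of that dose. The red blood cell mean was -1.04 in 0 mM replicate 3, and the cell cycle mean 0.88 in 5 mM replicate 2.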

How the results depend on the processing

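For separated genes, leaving out an array or taking slide 3 alone cannot turn the sign. With normexp 0 of the 92 named had the other sign. Over all 160 genes named, 35 of 2348 values in 24 genes had the other sign, among them IHH, EPCAM and C4BPA without 5 mM replicate 1. Of the 2348 values, 100 moved by more than the spread between arrays, 47 with normexp and 51 within slide 3. The 2348 include values for other filters, which repeat a gene's main value and so could neither move nor change sign. Of 560 list medians 28, in 10 lists, had the other sign, among them the nerve list without 5 mM replicate 1 (0.036 against -0.51) and lists with medians near 0. With normexp 842 probes were separated higher and 842 lower, against 1270 and 1504. With a minimum difference of 2 on the log2 scale, which by construction keeps fewer probes, they were 470 and 381. Leaving out each array in turn gave 1159 to 1815 higher and 949 to 2586 lower probes. The lower count was 949 when 5 mM replicate 1 was left out and 2586 when 0 mM replicate 1 was, and the cause was not tested. With quantile normalization, the median shift, the deposited table and other filters, both counts stayed within 1.5 times. Without a filter, however, the higher count (1704) was larger than the lower one (1641). Sets from the contractile list were the same sets, so their counts were the same by construction. Within slide 3, with fewer arrays and so less room for overlap, the counts were 1623 and 1953.

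For dose, all alternatives gave 0 probes with an adjusted p under 0.05 in limma except 1, since leaving out each array gave 0 to 1 over the 5 muscle-poor biopsies. Without 5 mM replicate 4 the MHC class II gene BOLA-DQB1, named after its value was seen, differed by -10.9 (limma adjusted p = 0.0167), with the lone 5 mM array assumed to vary like the others. Over all 8, leaving out each array gave 0 throughout, as did the covariate fit. Same-numbered biopsies come from different cows, so the labels do not pair them. Their deviations from the dose means correlated at 0.404, 0.357, -0.30 and 0.307 for replicates 1, 2, 3 and 4. Both biopsies of a number shared slide and set except for replicate 3, and the part of slide and set in these correlations was not tested. The replicate block gave 0 probes (1221 at an unadjusted p under 0.05), and slide as a block 0 (1026).

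Of 92 separated genes named, 30 had differences smaller by over 1.5 times with normexp. Near background, signals limit the size of a difference more than its sign.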

Other observations

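Several genes outside the lists and rules above, chosen after their values were seen, were also separated between the sets. FRZB, a secreted WNT inhibitor, was -0.88, 0.66 and 0.50 in 0 mM replicate 1, 5 mM replicate 3 and 5 mM replicate 1, against -4.57 to -3.14 in the muscle-poor biopsies. DKK2, another, was -0.63, -0.016 and 2.45 against -4.43 to -2.52, and SOSTDC1, which binds BMP and WNT coreceptors, 0.59, 1.52 and -0.28 against -4.67 to -1.50. Without 5 mM replicate 1 their differences were 3.94, 2.84 and 4.47. CCL21, a chemokine of lymphatic vessels, was -2.21, -1.56 and -1.64 against -8.33 to -4.71 and well above background on 3 of the 5 muscle-poor arrays, and NRP2, a receptor of lymphatic endothelium and other cells, was 2.32, 2.76 and 4.44 against -1.06 to -0.39. KCNE4, a potassium channel subunit, was 2.79, 3.28 and 1.1 against -2.96 to -1.97, and IGFBP5 1.33, 2.66 and 3.23 against -2.24 to -1.01. COL4A6, a basement membrane collagen chain, was 2.48, 2.37 and 5.04 against -0.81 to -0.06, PI16 -0.82, 1.26 and 0.056 against -4.73 to -3.19 and A2M, a protease inhibitor, 0.36, 1.1 and 1.54 against -3.78 to -2.39.

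Among lower genes chosen in the same way, the epithelial transcription factors TFAP2A and TFAP2C differed by -3.57 and -3.58, and by -2.49 and -1.94 without 5 mM replicate 1. Both were well above background on 2 of the 3 muscle-rich arrays, but not on 5 mM replicate 1. The sizes with that array therefore depend on the background correction. The secreted WNT inhibitors WIF1 and DKK3 were lower, by -1.98 and -1.18. BCAT1, a branched-chain amino acid transaminase, was 1.25, 1.1 and -2.50 against 2.48 to 3.73.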
